A study of Mus musculus with 23 samples.

Results

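The interferon-stimulated genes described here are 42 named genes whose transcription is known to rise after interferon: RNA sensors, transcription factors, antiviral effectors, interferon-induced GTPases and immunoproteasome subunits. They were taken from a list of names and read by gene ID in the deposited counts, where 42 of 42 were found among 49315 genes. Of these, 41 entered the tests with 15500 genes in all. Oas3, an enzyme that makes 2-prime to 5-prime oligoadenylate, was read 0 to 4 times per library and stayed out of the tests. RNA came from the left ventricle of FVB mice, an inbred strain, and 23 libraries fall into 6 groups. Mice starting at 3 weeks of age breathed filtered air (4 libraries), the e-cigarette vehicle as aerosol (3 libraries) or that vehicle with nicotine (4 libraries), and mice starting at 3 months of age had the same 3 treatments with 4 libraries each. Every group was treated for 4 hours a day, 5 days a week, over 3 months, so the age at first exposure, the age at tissue collection and any batch that differs with them cannot be told apart. The groups are called 3-week air, 3-week vehicle, 3-week nicotine, 3-month air, 3-month vehicle and 3-month nicotine. The labels give no sex, cage or batch and do not say that libraries are separate animals, and p-values here rest on a spread between samples that could be purely technical.

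Interferons are secreted proteins that bind receptors on the cell surface and activate JAK kinases, which phosphorylate STAT proteins. Type I and type III interferons act through a complex containing STAT2 and IRF9 that binds the interferon-stimulated response element, while interferon gamma acts through the gamma-activated site. Many cells, cardiomyocytes and cardiac endothelium and macrophages among them, transcribe these genes at a low level without infection, and in the heart the pathway is known for its part in defence against viral myocarditis.

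Both elements were looked for in the promoters of the genes as RefSeq gives them for GRCm38.p6, in a window from 250 bases before to 50 bases after each start. The core of the response element was searched as GAAA, any 2 bases, GAAA on either strand, and the gamma-activated site as TTCNNNGAA, which reads the same on both strands. Matches may overlap one another. The table held promoters of 33 of the 42 genes, and those of Dhx58, Gbp6, Iigp1, Oas2, Parp14, Parp9, Rtp4, Usp18 and Zbp1 were not matched. The GAAA pair was in the promoters of 19 of these 33 genes, against 3.99% of all genes in the table, and in 3.44% of its 32851 promoters. TTCNNNGAA was in those of 10 of the 33, against 9.55% of all genes and 8.3% of promoters. Of the genes called below as higher in 3-week vehicle than in air, 3 of 7 with a promoter held the GAAA pair. Of those called lower in 3-month than in 3-week vehicle, 9 of 18 did. Samd9l, Herc6, Psmb9, Irf9, Oasl2, Xaf1, Irf7 and Rnf213, which are called below, held neither match. The stretches below are shown because they carry these matches in genes that the results name. The matched bases are in capitals, and each sequence runs 5′ to 3′ along the gene's strand.
Ifit3 at chr19:34583353-34583436, plus strand, bases 176 to 93 before the start: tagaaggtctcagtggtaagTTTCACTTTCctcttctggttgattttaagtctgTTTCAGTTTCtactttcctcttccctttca
Ifit3b at chr19:34607749-34607832, plus strand, bases 208 to 125 before the start: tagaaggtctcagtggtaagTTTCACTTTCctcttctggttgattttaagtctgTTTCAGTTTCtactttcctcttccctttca
Ifit1 at chr19:34640765-34640833, plus strand, bases 124 to 56 before the start: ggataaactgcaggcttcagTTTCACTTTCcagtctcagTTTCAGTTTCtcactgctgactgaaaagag
Isg15 at chr4:156200855-156200916, minus strand, bases 98 to 37 before the start: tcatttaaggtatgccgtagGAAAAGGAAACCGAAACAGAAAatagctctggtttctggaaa
Stat2 at chr10:128270256-128270305, plus strand, bases 242 to 193 before the start: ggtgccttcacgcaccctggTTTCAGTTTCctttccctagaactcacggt
Gbp3 at chr3:142559979-142560034, plus strand, bases 65 to 10 before the start: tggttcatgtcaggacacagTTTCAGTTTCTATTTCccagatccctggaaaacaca
Gbp7 at chr3:142530210-142530312, plus strand, bases 126 to 24 before the start: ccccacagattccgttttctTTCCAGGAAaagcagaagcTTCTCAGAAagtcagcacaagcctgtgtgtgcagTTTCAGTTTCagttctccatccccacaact
Igtp at chr11:58199491-58199551, plus strand, bases 65 to 5 before the start: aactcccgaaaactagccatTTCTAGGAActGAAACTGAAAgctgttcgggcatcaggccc
Irgm2 at chr11:58214882-58214942, plus strand, bases 95 to 35 before the start: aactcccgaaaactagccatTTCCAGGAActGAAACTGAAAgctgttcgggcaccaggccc
Irf1 at chr11:53769904-53769952, plus strand, bases 110 to 62 before the start: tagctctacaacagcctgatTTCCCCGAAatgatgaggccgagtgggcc
Psmb8 at chr17:34198078-34198126, plus strand, bases 117 to 69 before the start: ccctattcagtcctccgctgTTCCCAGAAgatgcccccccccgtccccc
The stretches of Ifit3 and Ifit3b, which are neighbouring copies, were identical over 84 bases, each with 2 GAAA pairs. Those of Igtp and Irgm2 differed at 2 of 61 bases and held a GAAA pair and a TTCNNNGAA match side by side. Irf1 and Psmb8 held TTCNNNGAA and no GAAA pair in the window. A match is a description of the letters and not a binding site measured here.

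Levels were low to moderate. Library totals were 12297955 to 17821550 counts, and the 41 genes took 4553 to 10978 counts of a library. Counts scaled to a common library size by TMM and expressed as CPM were divided by exonic length to compare genes with one another. On that scale the highest levels, as means over the 23 libraries, were those of Ifi35 (12.9 CPM per kilobase), Bst2 (12.3), Gbp2 (8.62), Irf1 (7.36) and Psmb8 (6.14), and the lowest among tested genes were those of Zbp1 (0.0981), Ifi44 (0.171), Herc6 (0.486) and Gbp6 (0.49). Some genes share sequence with others, which the authors' counting could split: of the 50-base words in their transcripts, 57.6% of those of Oas1a are also in Oas1g, 51.2% of those of Ifit3 in Ifit3b, and 65% of those of Gbp6 in Gm43302. Values of these genes are uncertain, as are those that share at least 10% (Herc6, Ifi35, Rtp4, Igtp, Gbp7 and Psmb8, with Ifit3b) and, because the strand setting is not given in the sources used here, those of genes with an overlapping or antisense neighbour (Dhx58 with Dhx58os and Rnf213 among them).

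The labelled tissue was checked first. Ventricular cardiomyocyte markers (Myh6, Tnnt2 and 5 others) summed to 68800 to 91000 CPM, and atrial markers to 1.56 to 184 CPM. Macrophage markers, 12 of 12 tested, summed to 206 to 347 CPM, endothelial markers to 964 to 1590 CPM, dendritic cell markers to 4.35 to 10.1 CPM, B and plasma cell markers to 1.68 to 4.57 CPM, and T and NK cell markers to 1.15 to 4.6 CPM, so lymphocyte markers were near the floor. In bulk tissue, fewer cells of a type and less RNA per cell cannot be told apart. In 3-week air, libraries 1 and 5 stood apart from libraries 2 and 4: Thbs1, a secreted matrix protein, was at 742 and 690 CPM against 11.9 and 6.94 CPM, near the 349 to 1020 CPM of the 3-month libraries, and neutrophil markers summed to 11.1 and 8.66 CPM against 0.839 and 1.04 CPM. In 3-week vehicle, libraries 1 and 2 had 2.63% and 2.26% of their counts outside protein-coding genes, against 1.48% in library 4 and 1.2% to 1.56% in 3-week air. In 3-week nicotine the share was 1.43% to 3.19%, highest in library 3. The rank correlation of level with exonic length was 0.235 and 0.236 in vehicle libraries 1 and 2 and 0.302 in library 4. It was 0.274 to 0.303 in 3-week air and 0.237 to 0.305 in 3-week nicotine.

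Taken as a mean over the 41 tested genes of log2(CPM + 0.5), the level was highest in 3-week vehicle (3.52 ± 0.211, SD, n = 3) and lowest in 3-month air (2.6 ± 0.046, n = 4). The 3-week vehicle libraries 1, 2 and 4 were at 3.57, 3.7 and 3.29. Those of 3-week air numbered 1, 2, 4 and 5 were at 2.43, 3.32, 3.23 and 3.09, and those of 3-week nicotine numbered 2, 3, 5 and 6 at 3.44, 3.05, 3.16 and 3.07. Library 1 of 3-week air was thus below every other library, including all 12 of the later start, and it was the lowest of its group for 40 of 41 genes. The same library had the lowest summed endothelial markers of the 23 (964 CPM, against 1290 to 1470 CPM in the other air libraries of that start). It had the highest summed ventricular cardiomyocyte markers (91000 CPM, against 72400 to 86200 CPM) and atrial markers at 114 CPM (against 1.87 to 8.92 CPM). It also had the highest summed macrophage markers of the 23 (347 CPM, against 280 to 293 CPM) and neutrophil markers at 11.1 CPM (against 0.839 to 8.66 CPM). The part of these markers in its low level was not tested. Within 3-week vehicle, library 4 was the lowest for 28 genes. In 3-month air the libraries were at 2.63, 2.55, 2.57 and 2.65, in 3-month vehicle at 2.58, 2.83, 2.98 and 3.06, and in 3-month nicotine at 2.65, 2.59, 2.99 and 2.55. Library 1 of 3-month vehicle (lowest of its group for 30 genes) lay within the air range and library 3 of 3-month nicotine (highest of its group for 28 genes) lay with the vehicle libraries. Of the 41 genes, 36 had their highest group mean in 3-week vehicle and 37 their lowest in 3-month air or 3-month nicotine.

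**Figure D1:**
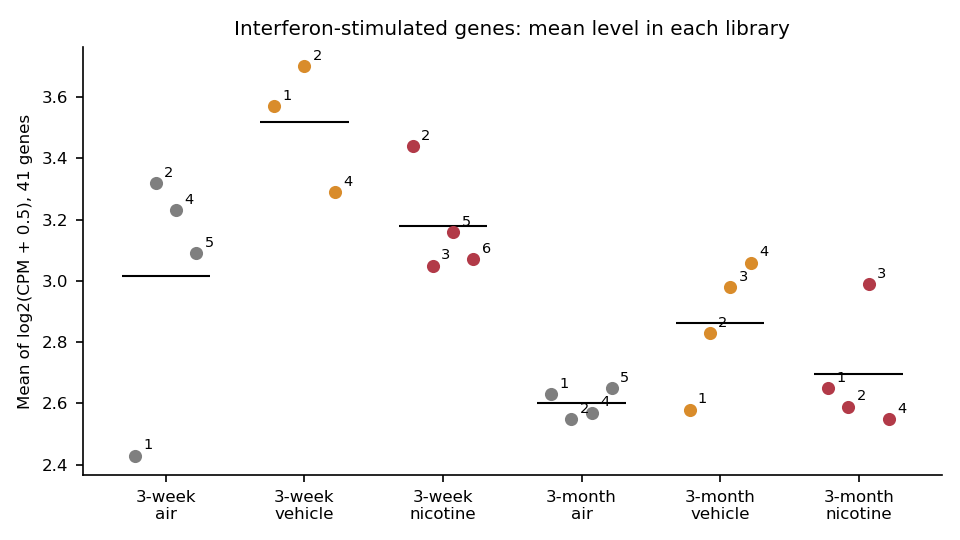
Mean of log2(CPM + 0.5) over the 41 tested interferon-stimulated genes (vertical axis) in each library, by group (horizontal axis); numbers are library numbers and black bars are group means. 3-week air library 1, at 2.43, lies below the other 22 libraries, and 3-week vehicle libraries 1 and 2, at 3.57 and 3.7, lie above them.

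**Figure D2:**
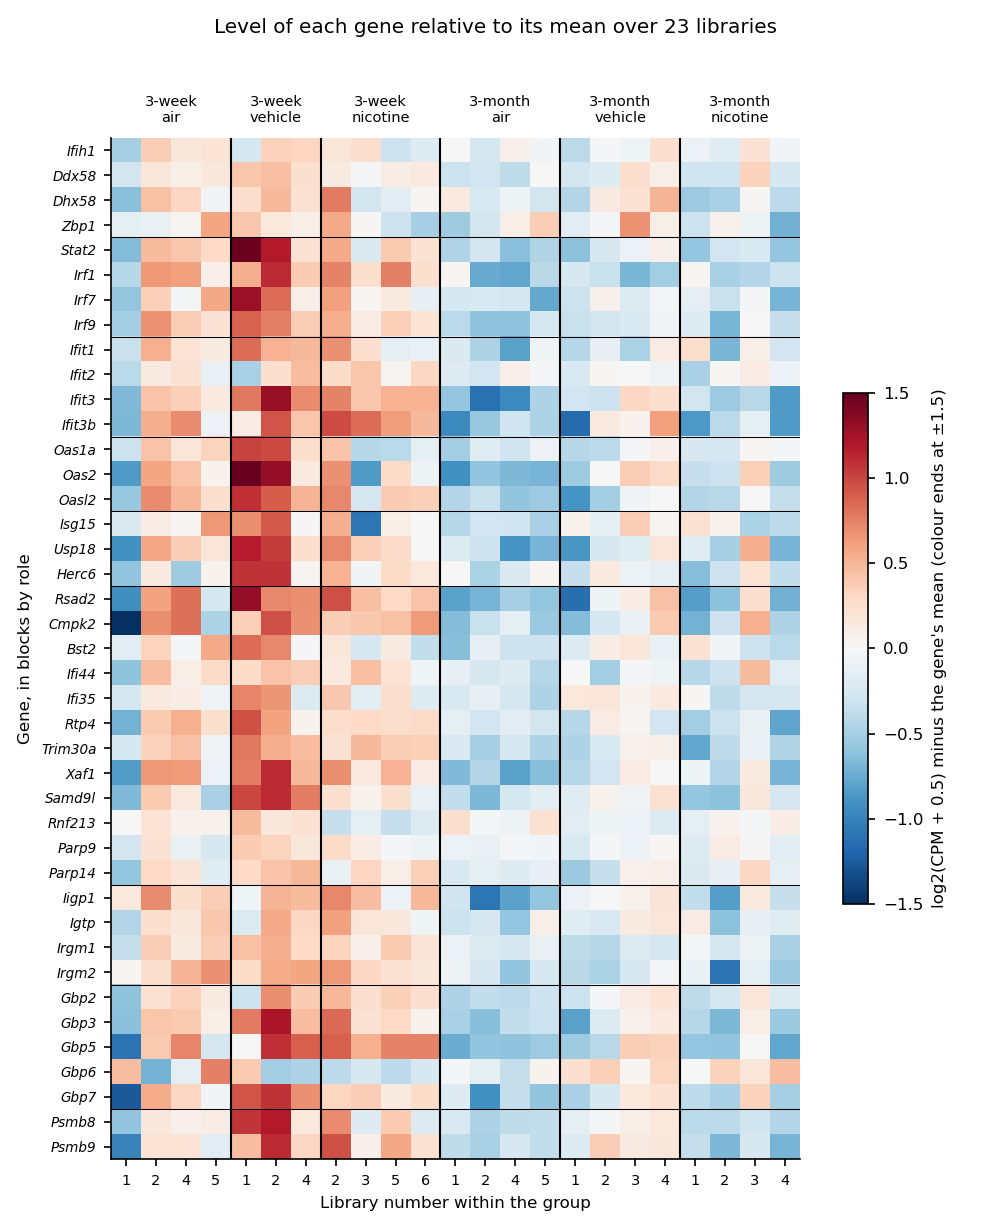
Each row is a gene, in blocks by role, and each column a library; colour gives log2(CPM + 0.5) minus the gene's mean over the 23 libraries, red above and blue below. Most rows are red in 3-week vehicle and blue in 3-week air library 1 and in the 3-month groups, while the row of Gbp6 runs the other way in 3-week air.

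Among mice starting at 3 weeks, vehicle aerosol went with higher transcript of 9 interferon-stimulated genes and lower transcript of 0 (edgeR's quasi-likelihood test, adjusted p under 0.05). The 9 were Samd9l, Psmb8, Herc6, Ifit3, Stat2, Parp9, Psmb9, Gbp7 and Oas2, and 39 of 41 genes had a positive difference, Gbp6 and Iigp1 being the exceptions. The median difference was 0.47 log2, against 0.02 log2 over all genes tested. Of all genes tested, 16.2% passed in either direction and 9.27% were higher, so 22% of the 41 genes stood against that background. In 8 genes (Samd9l, Ifit3, Psmb9, Gbp7, Gbp3, Trim30a, Parp14 and Ddx58) every vehicle library was above every air library, which held for 5.06% of all genes. The count rested on single libraries: 0 genes passed when air library 1, vehicle library 1 or vehicle library 2 was dropped, 1 (Samd9l) when air library 5 was, 14 when air library 2 was and 17 when vehicle library 4 was. In the last 3 of these fits 0.854%, 11.3% and 20.8% of all genes were higher. Without air library 1, vehicle library 1 or vehicle library 2 that share was 0.0%, 0.0% and 0.527%. A fit of these 2 groups alone called 0, as 0.0% of all genes. Without air libraries 1 and 5 the count was 0, as 0.0% of all genes, and 34 of 41 differences were positive with a median of 0.22 log2. Beside this, summed macrophage markers were 270 to 298 CPM in vehicle and 280 to 347 CPM in air, with 0 higher and 1 lower of 12 tested, and summed neutrophil markers were 0.755 to 1.98 CPM against 0.839 to 11.1 CPM, with 0 higher and 1 lower of 4. Summed endothelial markers were 1120 to 1590 CPM against 964 to 1470 CPM, with 1 of 8 higher, and summed blood markers (hemoglobin genes and Alas2) were 467 to 2360 CPM against 505 to 929 CPM, the highest value being that of vehicle library 1. The part of these markers, of Thbs1 and of the noncoding share in the result was not tested.

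Nicotine aerosol at the younger start gave no gene past the threshold against air, a comparison that shares the air libraries with the one above. Of the 41 genes 32 had a positive difference, with a median of 0.12 log2 (0.02 log2 over all genes), and 0.813% of all genes passed. Unadjusted p-values were under 0.05 in 4 genes, and DESeq2 called Rnf213 alone (1 gene), lower, where 2.66% of all genes were lower. The smallest adjusted p in edgeR was that of Rnf213 (-0.35 ± 0.09 log2, adjusted p = 0.074), followed by Psmb9 (0.64 ± 0.24 log2, 0.236) and Gbp5 (0.67 ± 0.30 log2, 0.356). The median turned to -0.03 log2 without air library 1 and to -0.09 log2, with 12 of 41 positive, without air libraries 1 and 5. In the authors' deposited table of the same comparison, which lists 40 of the genes, Rnf213 had a log2 fold change of -0.37 with an adjusted p of 0.0386, the only one of the 40 under 0.05, and 32 were positive.

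Set directly against vehicle at the younger start, nicotine gave 37 of 41 negative differences and 0 genes past the threshold. The median was -0.35 log2, against -0.02 log2 over all genes, and 0.0% of all genes passed. Ifit2, Ifit3b, Iigp1 and Gbp2 were the 4 with a positive difference. The smallest adjusted p was that of Rnf213 (-0.56 ± 0.10 log2, 0.0783), followed by Samd9l (-0.88 ± 0.22 log2, 0.122) and Oas1a (-1.12 ± 0.31 log2, 0.137), and in 4 genes (Rnf213, Samd9l, Gbp7 and Ddx58) every nicotine library was below every vehicle library, against 2.36% of all genes. Unadjusted p-values were under 0.05 in 10 genes. DESeq2 called 2, both lower (Rnf213 and Samd9l), of the 22 to which it gave an adjusted p, where 1.46% of all genes were lower. When vehicle library 4 was dropped, edgeR called 10, all lower, a fit in which 13.8% of all genes were lower.

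Among mice starting at 3 months, vehicle aerosol went with 38 positive differences of 41, and 0 genes passed the threshold in the fit of all groups, in which 0.0% of all genes passed. The median was 0.32 log2, against 0.01 log2 over all genes. Iigp1 (0.73 ± 0.20 log2, adjusted p = 0.224), Ifit3 (0.96 ± 0.27 log2, 0.236) and Rnf213 (-0.23 ± 0.09 log2, 0.317) had the smallest p. In 9 genes (Iigp1, Ifit3, Ifi35, Oas2, Psmb9, Gbp5, Xaf1, Psmb8 and Isg15) every vehicle library was above every air library, against 8.52% of all genes. Unadjusted p-values were under 0.05 in 7 genes, and DESeq2 called 0, where 0.589% of all genes passed. With only the 8 libraries of these 2 groups in the fit, 8 of the 40 genes then tested passed, all higher: Iigp1, Ifi35, Oas2, Psmb8, Psmb9, Ifit3, Gbp2 and Xaf1. In that fit 18.4% of all genes passed in either direction and 7.65% were higher. Thbs1 was at 719, 602, 496 and 411 CPM in vehicle libraries 1 to 4 and the mean level of the 41 genes at 2.58, 2.83, 2.98 and 3.06, so the library with most Thbs1 had the lowest mean. The library with most Thbs1 had the lowest mean in 3-week air and 3-month nicotine too. In 3-month air, 3-week vehicle and 3-week nicotine it did not. This relation was seen after the values and its part in the result was not tested. Summed macrophage markers were 235 to 319 CPM in vehicle and 224 to 254 CPM in air, and T and NK cell markers 2.43 to 4.6 CPM against 2.13 to 2.75 CPM. Summed endothelial markers were 1220 to 1470 CPM in vehicle and 1040 to 1250 CPM in air, with 0 of 8 tested past the threshold, and summed blood markers 660 to 892 CPM against 304 to 721 CPM, with 0 of 4. The part of these markers in the result was not tested.

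For nicotine against air at the later start, 31 of 41 differences were positive with a median of 0.15 log2, 0 genes passed, and every adjusted p was 1. Of all genes 0.0% passed in edgeR, and 0 of the 41 had an unadjusted p under 0.05. DESeq2 called 0, where 0.00327% of all genes passed. Ranked by p, the first genes were Iigp1 (0.37 ± 0.21 log2), Oas2 (0.62 ± 0.39 log2) and Xaf1 (0.44 ± 0.28 log2). Without nicotine library 3 the median was -0.03 log2. The authors' deposited table of this comparison lists 40 of the genes, with 0 under an adjusted p of 0.05 and a smallest value of 0.552. Against vehicle, nicotine had 29 negative differences of 41 with a median of -0.16 log2 and 0 genes past the threshold, as 0.0% of all genes. An unadjusted p was under 0.05 in 2 genes, and DESeq2 called 0, where 0.118% of all genes passed. Psmb9 (-0.64 ± 0.24 log2, adjusted p = 0.399), Ifit3 (-0.63 ± 0.27 log2, 0.404) and Ifi35 (-0.35 ± 0.17 log2, 0.409) had the smallest p, and in 3 genes (Psmb9, Ifi35 and Psmb8) every nicotine library was below every vehicle library, near the 6.66% of all genes. A fit of these 8 libraries alone called the same 3 of 40 genes, all lower, where 5.99% of all genes were lower. Summed blood markers were 407 to 552 CPM in nicotine and 660 to 892 CPM in vehicle, and their part was not tested.

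**Figure D3:**
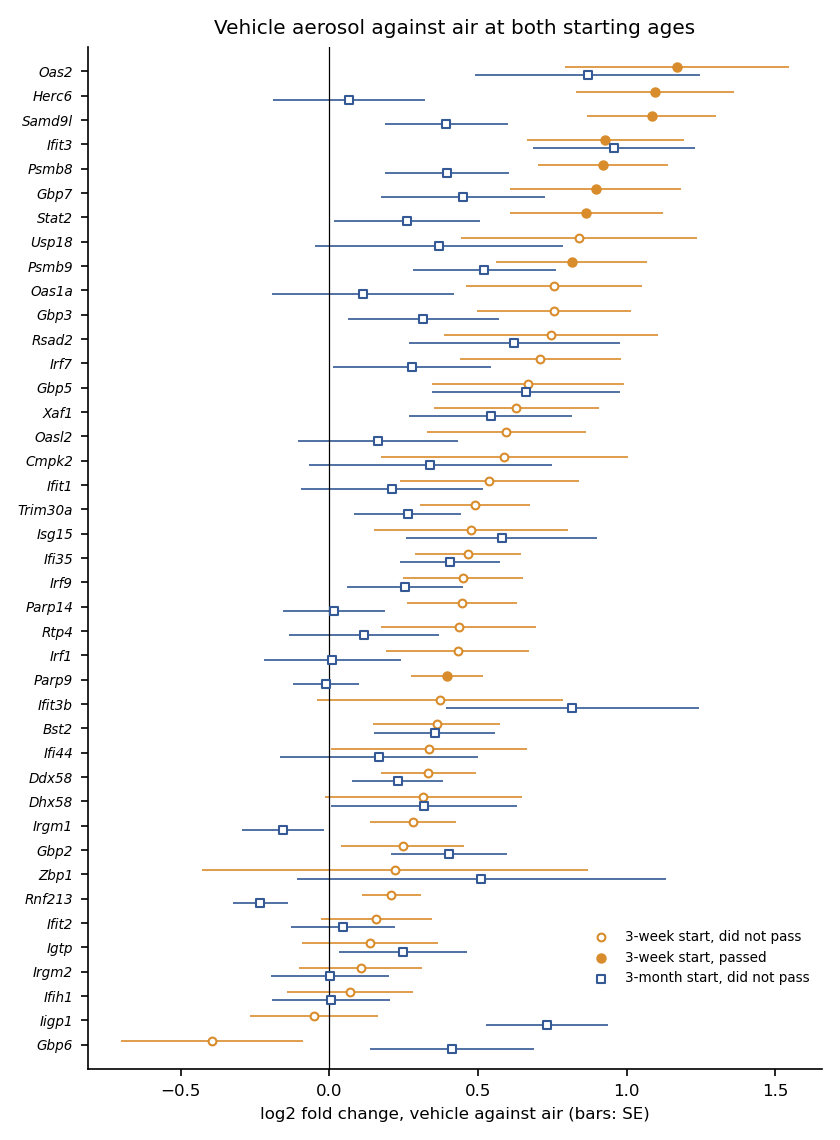
log2 fold change of vehicle against air (horizontal axis, with SE bars) for each of the 41 genes at the 3-week start (orange circles) and the 3-month start (blue squares); filled points passed an adjusted p of 0.05. Of the 41 genes 36 are positive at both starts, and the 9 filled points are all at the 3-week start.

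Whether the vehicle difference itself depended on the starting age was tested as an interaction, and 0 of 41 genes passed in edgeR, as 0.0% of all genes. Unadjusted p-values were under 0.05 in 6 genes. DESeq2 called 0 of the 10 genes to which it gave an adjusted p, where 1.21% of all genes passed. Rnf213 had the smallest p (0.44 ± 0.14 log2 for 3 weeks minus 3 months, adjusted p = 0.232), followed by Herc6 (1.03 ± 0.37 log2, 0.283), which passed without 3-week vehicle library 4 (as 9.3% of all genes then did), and Iigp1 (-0.78 ± 0.30 log2, 0.319). The median of this difference was 0.23 log2 and came to 0.01 log2 without 3-week air library 1. For the nicotine difference 0 of 41 genes passed, against 0.135% of all genes, with 2 at an unadjusted p under 0.05. DESeq2 called 0, where 1.39% of all genes passed. Gbp6 (-1.03 ± 0.40 log2, adjusted p = 0.331), Psmb9 (0.76 ± 0.34 log2, 0.451) and Rnf213 (-0.25 ± 0.13 log2, 0.545) had the smallest p.

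The starting ages were then set against each other within each treatment. In vehicle-exposed ventricles, 22 of 41 genes were lower and 0 higher at the 3-month start than at the 3-week start, and 40 of 41 differences were negative, Gbp6 being the exception. The median was -0.77 log2, against -0.02 log2 over all genes. Of all genes tested, 12.5% passed in either direction and 7.38% were lower, against 53.7% of the 41 genes. In 22 genes, 20 of those that passed with Rsad2 and Ifi44, every 3-month library was below every 3-week library, as in 9.01% of all genes. The genes that passed were Irgm1, Stat2, Irf1, Oasl2, Irf9, Samd9l, Rnf213, Trim30a, Oas1a, Gbp3, Ifit3, Psmb8, Irgm2, Herc6, Irf7, Xaf1, Gbp7, Oas2, Usp18, Ifit1, Parp9 and Parp14. This contrast shares the 3-week vehicle libraries with the test against air above. The count was 0 without 3-week vehicle library 1, 7 without 3-week vehicle library 2, 7 without 3-month vehicle library 1 and 12 without 3-month vehicle library 2, and it was 8 of 40 in a fit of these 7 libraries alone. Of all genes 0.0%, 2.25%, 1.97%, 3.03% and 0.911% were lower in these fits.

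In nicotine-exposed ventricles 10 of 41 genes were lower at the later start and 0 higher, and 39 differences were negative, Rnf213 and Gbp6 being the exceptions. The 10 were Ifit3, Trim30a, Psmb9, Irgm2, Gbp5, Ifit3b, Iigp1, Irf1, Irgm1 and Irf9. The median was -0.54 log2 (-0.02 log2 over all genes). DESeq2 called 14 lower and 1 higher, Rnf213, where 5.68% of all genes were lower and 7.3% higher. Of all genes, 9.52% passed in either direction and 4.49% were lower, and every 3-month library was below every 3-week library in 14 of the 41, against 9.37% of all genes. Without 3-week nicotine library 2 the count was 3, without 3-month nicotine library 2 it was 4 and without 3-month nicotine library 4 it was 3, where 1.64%, 1.43% and 1.59% of all genes were lower, and Ifit3 and Trim30a were among the genes that passed each time. Beside this, summed blood markers were 1090 to 1400 CPM in 3-week nicotine and 407 to 552 CPM in 3-month nicotine, without overlap, with 4 of 4 tested lower, and their part in the result was not tested.

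Air controls had 38 negative differences of 41, a median of -0.55 log2 (-0.01 log2 over all genes) and 0 genes past the threshold, where 0.00645% of all genes passed. Iigp1 (-1.08 ± 0.20 log2, adjusted p = 0.0918), Ifit3 (-1.08 ± 0.27 log2, 0.179) and Irf9 (-0.74 ± 0.19 log2, 0.195) had the smallest p. Unadjusted p-values were under 0.05 in 21 genes, and DESeq2 called 1, Iigp1, lower, where 0.139% of all genes were lower. In Iigp1, Irgm2 and Isg15 every 3-month library was below every 3-week library, against 2.85% of all genes. Without 3-week air library 1, 5 genes passed, all lower (Irf9, Ifit3, Iigp1, Xaf1 and Oasl2), and without libraries 1 and 5 of 3-week air 16 passed, all lower. Of all genes 0.291% and 3.63% were lower in these 2 fits. Beside these age contrasts, summed neutrophil markers were 3.67 to 17.3 CPM in the 3-month groups and 0.755 to 1.98 CPM in 3-week vehicle and 3-week nicotine, with 2 of 4 tested higher in the vehicle contrast and 3 in the nicotine contrast. Summed macrophage markers were 224 to 319 CPM in the 3-month groups and 206 to 347 CPM in the 3-week groups. Summed blood markers were 467 to 2360 CPM in 3-week vehicle and 660 to 892 CPM in 3-month vehicle, and 505 to 929 CPM in 3-week air and 304 to 721 CPM in 3-month air, with 0 of 4 past the threshold in either. The part of any of these in the result was not tested.

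**Figure D4:**
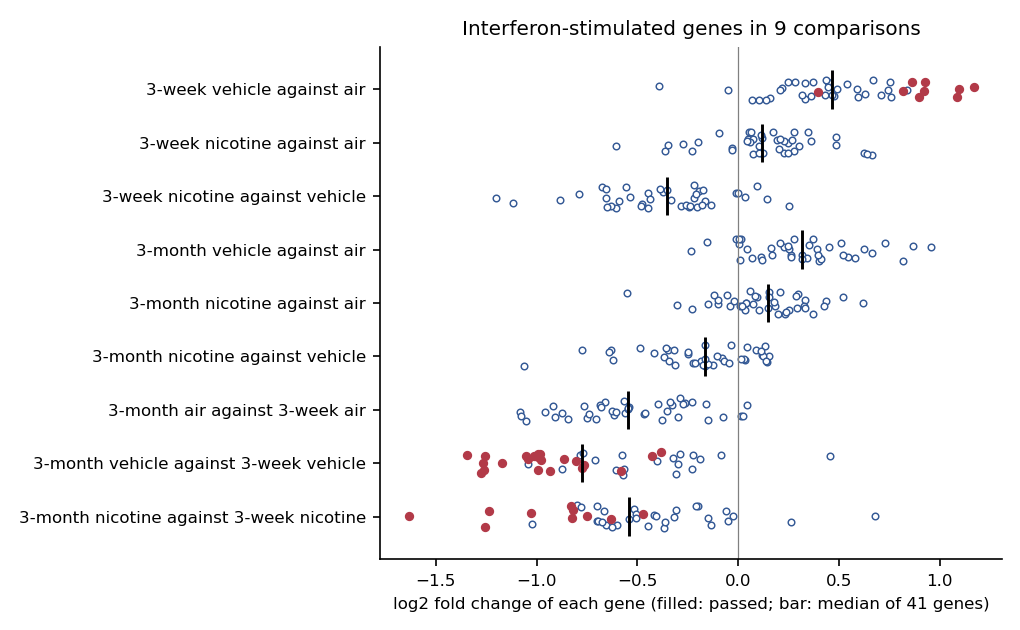
log2 fold change of each of the 41 genes (points, horizontal axis) in 9 comparisons between groups (vertical axis); filled points passed an adjusted p of 0.05 and black bars are medians. The bars lie between 0.12 and 0.47 log2 in the 4 comparisons of an aerosol with air and between -0.77 and -0.54 log2 in the 3 comparisons of starting ages; comparisons in the plot share groups and are not independent.

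By role, the transcription factors come first. Stat2, the STAT protein particular to type I and III interferon signalling, was at 11.8, 26.4, 25.1 and 23.1 CPM in 3-week air libraries 1, 2, 4 and 5 and at 52.9, 43.5 and 21.8 CPM in 3-week vehicle libraries 1, 2 and 4. The vehicle libraries 1 and 2 were above all air libraries and library 4 was within their range (0.86 ± 0.26 log2, adjusted p = 0.0333). It was at 28.1, 16.1, 24.9 and 21.9 CPM in 3-week nicotine libraries 2, 3, 5 and 6. Among 3-month starters Stat2 was at 13.6, 15.5, 12.01 and 13.6 CPM in air (libraries 1, 2, 4 and 5), 12.1, 15.8, 17.6 and 19.9 CPM in vehicle and 12.4, 15.3, 15.9 and 12.4 CPM in nicotine (libraries 1 to 4 each). Every 3-month vehicle library was below every 3-week vehicle library (-1.26 ± 0.26 log2, adjusted p = 0.00736). Values of other genes follow the same order of libraries.

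Irf1, a factor induced through the gamma-activated site and an activator of many genes of this set, was the factor with the highest level per length. It was at 20.1, 42.8, 42.1 and 28.6 CPM in 3-week air, 40.1, 59.7 and 35.4 CPM in 3-week vehicle and 45.8, 32.2, 46.3 and 32.4 CPM in 3-week nicotine. In the 3-month groups it was at 27.7, 15.8, 15.6 and 20.3 CPM in air, 22.98, 21.6, 16.6 and 18.7 CPM in vehicle and 27.8, 19.2, 19.9 and 21.6 CPM in nicotine. The later groups lay lower, without overlap in vehicle (-1.17 ± 0.24 log2, adjusted p = 0.00806) and in nicotine (-0.83 ± 0.23 log2, 0.0283), while in air the groups overlapped (-0.75 ± 0.23 log2, 0.276). Irf9, the DNA-binding partner of STAT2, fell from 20.1 ± 3.66 CPM (SD, n = 3) to 10.5 ± 0.947 CPM (SD, n = 4) in vehicle (-0.93 ± 0.20 log2, adjusted p = 0.00927) and from 15.5 ± 2.11 CPM (SD, n = 4) to 10 ± 1.999 CPM (SD, n = 4) in nicotine (-0.63 ± 0.20 log2, 0.0441). Irf7, which amplifies type I interferon production, passed in the vehicle age contrast alone (-0.99 ± 0.27 log2, 0.0254). Thus 4 of 4 factors were lower in that contrast and 2 of 4 in nicotine, beside 7.38% and 4.49% of all genes. The nicotine calls of Irf1 and Irf9 each held in 7 of 14 alternative settings. The vehicle calls held in 7 (Irf7) to 12 (Irf9) of 14.

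Of the sensors of viral RNA and other nucleic acids 0 of 4 passed in any of the 9 comparisons in edgeR and 0 in DESeq2. Over these comparisons 0.0% to 16.2% of all genes passed in edgeR and 0.00327% to 20.9% in DESeq2. Nothing about the sensors is read from a count of 0 of 4 beside these shares. Of the 4 genes 1, Ddx58, had an unadjusted p under 0.05 in edgeR, in the vehicle age contrast (-0.40 ± 0.16 log2, adjusted p = 0.0935). Ddx58, which encodes the RNA sensor RIG-I, had the highest level per length of the 4. It was at 10.98, 15.1, 14.3 and 15.1 CPM in 3-week air, 18.01, 18.5 and 15.9 CPM in 3-week vehicle and 14.8, 13.2, 14.5 and 14.9 CPM in 3-week nicotine. All 3 vehicle libraries were above the other 8 of that start, without passing the test (0.33 ± 0.16 log2 against air, adjusted p = 0.135). With the later start it was at 10.6, 10.9, 10.2 and 13.4 CPM in air, 10.96, 11.7, 16.03 and 14.2 CPM in vehicle and 10.8, 10.8, 17.1 and 11.1 CPM in nicotine, where library 3 was apart from the others. Ifih1 (MDA5), Dhx58 (LGP2) and Zbp1, a sensor of Z-form nucleic acid with 0 to 13 counts per library, had differences of 0.07 to 0.32 log2 against air in 3-week vehicle, with SE of 0.21 to 0.65.

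IFIT proteins bind viral RNA and restrain its translation. Ifit3 was at 1.67, 4.09, 3.89 and 3.29 CPM in 3-week air and 5.44, 7.98 and 5.098 CPM in 3-week vehicle, so that every vehicle library was above every air library (0.93 ± 0.26 log2, adjusted p = 0.0307). In 3-week nicotine it was at 5.22, 4.03, 4.41 and 4.42 CPM. At the later start it was at 1.78, 1.08, 1.26 and 1.99 CPM in air, 2.298, 2.27, 3.74 and 3.57 CPM in vehicle and 2.32, 1.85, 2.08 and 1.401 CPM in nicotine. Vehicle was again above air without overlap (0.96 ± 0.27 log2), but the test did not pass (adjusted p = 0.236). Both aerosol groups were lower at the later start without overlap, vehicle by -1.05 ± 0.26 log2 (adjusted p = 0.0173) and nicotine by -1.24 ± 0.27 log2 (0.00651). Its copy Ifit3b, with the same promoter stretch, was at 3.78, 3.37, 2.86 and 2.53 CPM in 3-week nicotine and 0.697, 1.14, 1.45 and 0.701 CPM in 3-month nicotine (-1.64 ± 0.42 log2, adjusted p = 0.0186), and Ifit1 passed in the vehicle age contrast (-1.01 ± 0.31 log2, 0.0377). Because of the shared sequence, reads of Ifit3 and Ifit3b cannot be told apart with certainty.

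Ifit2, the member of that family with the highest level per length, did not pass in any comparison. It was at 9.99, 14.7, 15.6 and 12.4 CPM in 3-week air, 9.48, 15.96 and 18.6 CPM in 3-week vehicle and 16.3, 18.1, 13.8 and 16.8 CPM in 3-week nicotine. Among 3-month starters it was at 11.7, 10.9, 14.2 and 13.3 CPM in air, 11.4, 13.8, 13.5 and 12.97 CPM in vehicle and 9.45, 13.6, 14.7 and 12.6 CPM in nicotine. The groups overlapped in each of the 9 comparisons, and its vehicle age difference was -0.19 ± 0.19 log2, beside a median of -0.81 log2 for the 4 IFIT genes.

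The OAS enzymes make an oligoadenylate that activates RNase L. Oas2 was at 3.02, 9.08, 8.05 and 6.11 CPM in 3-week air and 22.6, 15.3 and 6.54 CPM in 3-week vehicle, with vehicle libraries 1 and 2 above all air libraries and library 4 inside their range (1.17 ± 0.38 log2, adjusted p = 0.0411). In 3-week nicotine it was at 9.72, 3.04, 7.27 and 5.53 CPM. In the 3-month groups it was at 2.88, 3.71, 3.48 and 3.42 CPM in air, 3.89, 5.83, 7.73 and 7.27 CPM in vehicle and 4.49, 4.64, 7.68 and 3.89 CPM in nicotine, so both aerosol groups were above air without overlap, and neither passed (adjusted p = 0.332 and 1). Without 3-week vehicle libraries 1 and 2 its difference from air was 0.01 log2, a value that takes the spread of the 1 vehicle library left from the other groups. Oasl2, an OAS-like family member, was at 3.27, 8.66, 7.43 and 6.11 CPM in 3-week air, 11.5, 9.99 and 7.49 CPM in 3-week vehicle and 8.74, 4.195, 6.81 and 6.71 CPM in 3-week nicotine. With the later start Oasl2 was at 3.64, 3.95, 3.22 and 3.36 CPM in air, 2.53, 3.44, 4.87 and 5.08 CPM in vehicle and 3.64, 3.71, 5.12 and 3.89 CPM in nicotine. All 4 vehicle libraries of the later start lay below the 3 of the younger start (-1.28 ± 0.27 log2, adjusted p = 0.00893), and Oas1a passed in the same contrast (-1.26 ± 0.30 log2, 0.0149).

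ISG15 is a ubiquitin-like protein, HERC6 the main ligase that attaches it in mice and USP18 the protease that removes it. Herc6 was at 2.65, 4.77, 2.78 and 4.43 CPM in 3-week air, 9.63, 9.57 and 4.41 CPM in 3-week vehicle and 6.33, 4.11, 5.26 and 4.82 CPM in 3-week nicotine. Vehicle libraries 1 and 2 were about level with each other and above the other 9 libraries of that start, while library 4 was within the air range (1.09 ± 0.27 log2, adjusted p = 0.0215). At the later start Herc6 was at 4.25, 2.93, 3.602 and 4.36 CPM in air, 3.24, 4.79, 3.99 and 3.82 CPM in vehicle and 2.56, 3.35, 4.98 and 3.19 CPM in nicotine, all of which overlapped. Isg15, highest of the 3 per length, passed in no comparison. It was at 1.91, 2.52, 2.36 and 3.89 CPM in 3-week air, 4.04, 4.79 and 2.33 CPM in 3-week vehicle and 3.59, 0.823, 2.48 and 2.29 CPM in 3-week nicotine, and at 1.58, 1.79, 1.77 and 1.49 CPM in 3-month air, 2.42, 2.03, 3.12 and 2.38 CPM in 3-month vehicle and 2.79, 2.43, 1.52 and 1.63 CPM in 3-month nicotine. Its counts were 10 to 69 per library, and 3-month vehicle was above 3-month air without overlap (0.58 ± 0.32 log2, adjusted p = 0.398). Usp18 passed in the vehicle age contrast (-1.34 ± 0.41 log2, 0.0365).

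Among 12 other antiviral effectors, 2 were higher in 3-week vehicle than in air, a share of 16.7% beside 9.27% of all genes, and 6 were lower in 3-month than in 3-week vehicle, a share of 50% beside 7.38%. With 12 genes the first of these is about the count that the share over all genes gives. Samd9l, which restrains viral replication and cell growth, had the smallest p of the 41 genes against air. It was at 7.59, 16.3, 13.7 and 8.59 CPM in 3-week air, 24.99, 27.3 and 21.3 CPM in 3-week vehicle and 14.6, 12.8, 14.5 and 11.3 CPM in 3-week nicotine. The 3 vehicle libraries were above the other 8 of that start (1.08 ± 0.22 log2 against air, adjusted p = 0.0141). Among 3-month starters it was at 9.402, 7.54, 10.1 and 10.8 CPM in air, 10.8, 12.7, 11.8 and 14.5 CPM in vehicle and 8.05, 7.85, 13.8 and 10.3 CPM in nicotine, so that vehicle was lower than at the younger start without overlap (-0.98 ± 0.22 log2, adjusted p = 0.00972). Parp9, an ADP-ribosyltransferase family member, was at 22.7 ± 1.75 CPM (SD, n = 3) in 3-week vehicle and 17.2 ± 2.84 CPM (SD, n = 4) in 3-week air (0.40 ± 0.12 log2, adjusted p = 0.0359). Trim30a, a ubiquitin ligase family protein, was at 7.44, 9.13, 8.36 and 8.29 CPM in 3-week nicotine and 3.48, 4.71, 5.88 and 4.51 CPM in 3-month nicotine, without overlap (-0.83 ± 0.18 log2, adjusted p = 0.00682), and this call held in each of 14 alternative settings.

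Ifi35, the effector with the highest level per length, passed in no comparison of the fit of all groups. It was at 18.1, 24.1, 23.5 and 21.1 CPM in 3-week air, 36.5, 34.7 and 18.9 CPM in 3-week vehicle and 28.97, 19.3, 26.4 and 19.03 CPM in 3-week nicotine. In the 3-month groups it was at 18.5, 19.98, 18.1 and 15.7 CPM in air, 24.3, 24.7, 22.6 and 24.2 CPM in vehicle and 22.1, 16.6, 18.3 and 18.3 CPM in nicotine. The 4 vehicle libraries of that start were above all 4 of air and all 4 of nicotine, within a narrow band. The remaining effectors (Rsad2, Cmpk2, Bst2, Ifi44, Rtp4, Xaf1 and Parp14) had positive differences in 3-week vehicle against air and negative ones in the vehicle age contrast, where Xaf1 (-0.99 ± 0.28 log2, 0.0278) and Parp14 (-0.58 ± 0.18 log2, 0.0432) passed.

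Rnf213, a very large ubiquitin ligase with an ATPase motor, had a pattern of its own among the effectors. It was at 51.9, 59.7, 54.1 and 54.1 CPM in 3-week air, 72.2, 58.1 and 60.04 CPM in 3-week vehicle and 40.7, 46.5, 40.6 and 44.7 CPM in 3-week nicotine. All 4 nicotine libraries were below the other 7 of that start, against air by -0.35 ± 0.09 log2 and against vehicle by -0.56 ± 0.10 log2, neither past the threshold in edgeR. Such separation held for 2.36% of all genes against vehicle, and the share against air is not given here. With the later start it was at 61.01, 51.2, 48.9 and 60.6 CPM in air, 46.2, 48.98, 48.8 and 44.8 CPM in vehicle and 46.8, 53.6, 50.7 and 56.04 CPM in nicotine. There the vehicle group had the lowest mean. Rnf213 fell between starting ages in vehicle (-0.43 ± 0.10 log2, adjusted p = 0.0127). In nicotine it went the other way (0.26 log2). Every library of the later start was above every one of the younger start, as in 2 of the 41 genes, and the share over all genes is not given here. That rise did not pass in edgeR, while DESeq2 called it (0.28 log2, adjusted p = 0.0431).

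Immunity-related GTPases attack the membranes of vacuoles that hold pathogens and are known for induction by interferon gamma. In the comparisons of an aerosol with air 0 of 4 passed in edgeR and 0 in DESeq2. In edgeR 16.2% of all genes passed in 3-week vehicle, 0.813% in 3-week nicotine and 0.0% at the later start. Nothing about the family is read from a count of 0 of 4 beside these shares. Of the 4 genes 1, Iigp1, had an unadjusted p under 0.05, in 3-month vehicle. Irgm1, a regulator of the family, was at 10.9, 18.4, 15.6 and 18.4 CPM in 3-week air, 19.3, 20.8 and 17.6 CPM in 3-week vehicle and 17.9, 14.97, 18.8 and 16.3 CPM in 3-week nicotine. At the later start it was at 13.2, 12.2, 11.9 and 13.1 CPM in air, 10.8, 10.4, 12.2 and 11.8 CPM in vehicle and 13.9, 11.7, 13.4 and 9.96 CPM in nicotine. It had the smallest p of the vehicle age contrast (-0.77 ± 0.15 log2, adjusted p = 0.0059) and passed in nicotine (-0.47 ± 0.14 log2, 0.0357), without overlap in either. Irgm2, another regulator, was lower at the later start by -0.81 ± 0.21 log2 in vehicle (adjusted p = 0.0205) and -0.82 ± 0.20 log2 in nicotine (0.0145).

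Igtp, with the highest level per length of that family and nearly the same printed promoter stretch as Irgm2, passed in no comparison. It was at 6.11, 10.2, 9.58 and 11.3 CPM in 3-week air, 7.28, 12.8 and 10.6 CPM in 3-week vehicle and 13.2, 9.62, 9.59 and 8.05 CPM in 3-week nicotine, and at 6.66, 6.999, 5.498 and 9.02 CPM in 3-month air, 7.37, 7.12, 9.36 and 9.65 CPM in 3-month vehicle and 9.22, 5.35, 7.75 and 7.39 CPM in 3-month nicotine. Its groups overlapped in each comparison, with a vehicle age difference of -0.29 ± 0.23 log2. Iigp1, an effector of the family, was at 23.8, 35.2, 25.2 and 27.6 CPM in 3-week air and 17.2, 9.81, 12.01 and 14.1 CPM in 3-month air, without overlap. It was at 20.4, 30.7 and 29.9 CPM in 3-week vehicle and 20.1, 21.3, 22.1 and 24.4 CPM in 3-month vehicle, which overlapped (-0.30 ± 0.22 log2, adjusted p = 0.341). In nicotine it was at 35.6, 29.4, 19.96 and 30.2 CPM and 16.3, 11.8, 23.7 and 16.7 CPM at the younger and later start (-0.75 ± 0.20 log2, adjusted p = 0.0246).

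Guanylate-binding proteins are large GTPases that coat bacteria and vacuoles. Gbp7 was higher in 3-week vehicle than in air without overlap (31.5 ± 4.39 CPM (SD, n = 3) against 16.9 ± 7.69 CPM (SD, n = 4), 0.90 ± 0.29 log2, adjusted p = 0.0408). Gbp3 was at 6.6, 14.2, 13.9 and 11.3 CPM in 3-week air, 18.4, 25.2 and 14.7 CPM in 3-week vehicle and 19.4, 12.3, 13 and 10.9 CPM in 3-week nicotine, and its vehicle libraries were above those of air just short of the threshold (0.75 ± 0.26 log2, adjusted p = 0.0505). Among 3-month starters Gbp3 was at 7.34, 6.58, 8.03 and 8.28 CPM in air, 5.83, 9.09, 11.04 and 11.7 CPM in vehicle and 7.67, 6.42, 11.3 and 7.005 CPM in nicotine. The vehicle groups did not overlap between ages (-1.04 ± 0.26 log2, adjusted p = 0.0173). Gbp2, highest per length, was at 13.7, 24.7, 26.9 and 23.1 CPM in 3-week air, 16.7, 34.3 and 27.6 CPM in 3-week vehicle and 29.9, 25, 27.1 and 25.1 CPM in 3-week nicotine. In the 3-month groups Gbp2 was at 15.2, 16.2, 15.9 and 16.9 CPM in air, 16.7, 20.6, 23.02 and 24.4 CPM in vehicle and 16.03, 17.4, 23.9 and 18.2 CPM in nicotine, and it passed in no comparison of the fit of all groups.

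Gbp5 fell between starting ages in nicotine (17.1, 13.2, 15.3 and 15.2 CPM at the younger start, 5.81, 5.78, 8.86 and 4.98 CPM at the later, -1.25 ± 0.32 log2, adjusted p = 0.0169). Gbp6 ran against the others of its family in sign in the vehicle and nicotine age contrasts. Its differences were 0.46 ± 0.30 log2 in vehicle and 0.68 ± 0.29 log2 in nicotine, neither past the threshold (adjusted p = 0.301 and 0.133). In the air age contrast Gbp6 was negative like the others, and at the later start it was positive like them in both aerosols against air. In 3-week air it was at 4.07, 1.52, 2.499 and 5.099 CPM, highest in libraries 1 and 5, and most of its sequence is shared with another gene model.

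The immunoproteasome subunits Psmb8 and Psmb9 replace catalytic subunits of the standard proteasome and favour peptides for antigen presentation. Both were higher in 3-week vehicle than in air. Psmb8 was at 12.8, 22.03, 20.7 and 21.1 CPM in 3-week air, 41.6, 45.4 and 21.96 CPM in 3-week vehicle and 32.2, 17.03, 25.8 and 16.97 CPM in 3-week nicotine. Vehicle libraries 1 and 2 were above the other 9 of that start and library 4 lay within the air range (0.92 ± 0.22 log2, adjusted p = 0.0211). With the later start it was at 16.7, 14.1, 14.9 and 15 CPM in air, 17.8, 19.1, 20.96 and 21.9 CPM in vehicle and 14.7, 14.8, 15.8 and 14.3 CPM in nicotine, and the 4 vehicle libraries were above the other 8 without passing the test (0.40 ± 0.21 log2 against air, adjusted p = 0.381). Psmb9 was at 4.44, 10.9, 10.9 and 8.39 CPM in 3-week air, 13.1, 20.9 and 11.8 CPM in 3-week vehicle and 18.6, 9.95, 14.2 and 11.1 CPM in 3-week nicotine, and every vehicle library was above every air library (0.82 ± 0.25 log2, adjusted p = 0.0381). At the later start Psmb9 was at 7.07, 6.58, 7.899 and 7.16 CPM in air, 8.07, 12.2, 10.3 and 10.6 CPM in vehicle and 7.203, 5.71, 7.89 and 5.604 CPM in nicotine, and it fell between ages in nicotine (-1.03 ± 0.24 log2, adjusted p = 0.0128).

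**Figure D5:**
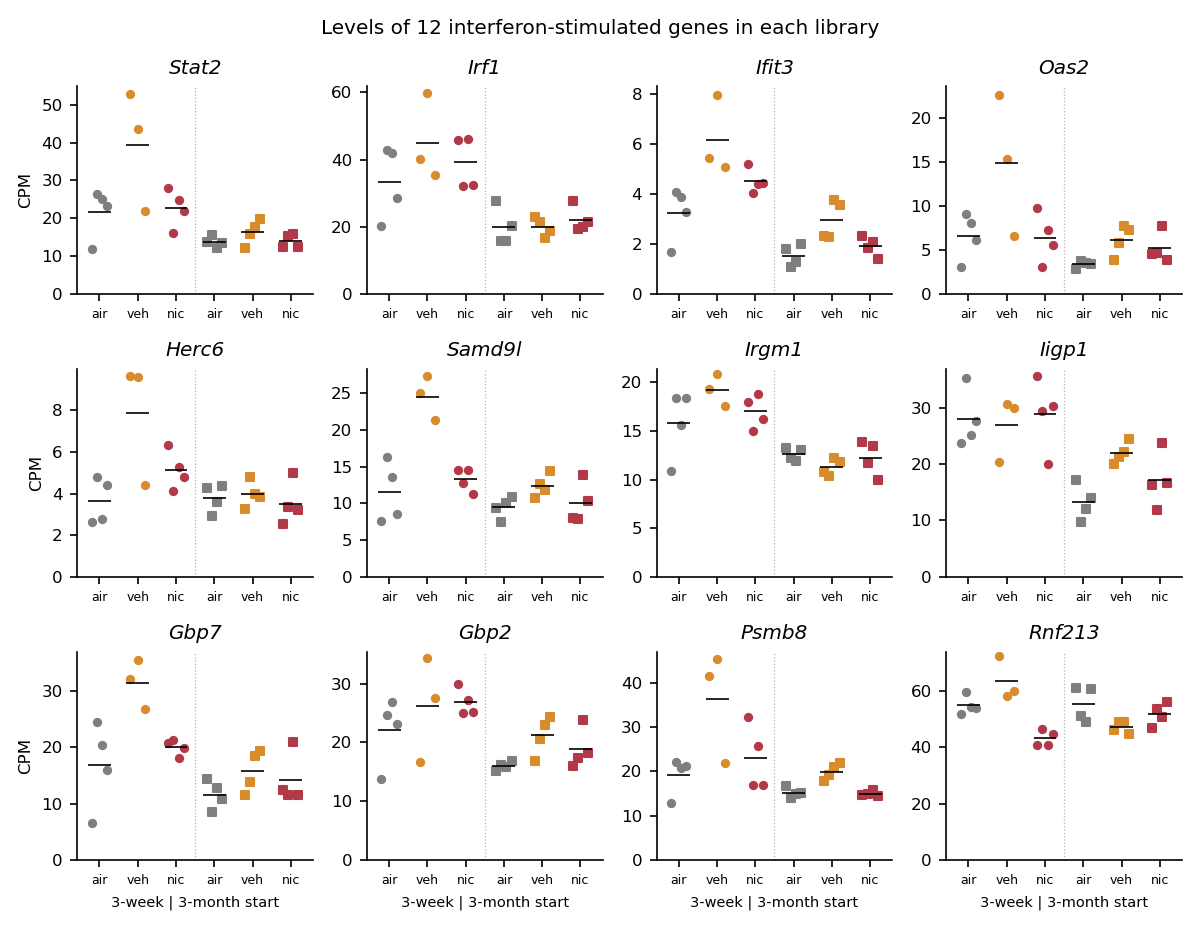
CPM (vertical axes, from 0) of 12 interferon-stimulated genes in each library, by treatment (air, vehicle, nicotine) at the 3-week start (circles, left) and the 3-month start (squares, right); black bars are group means. In Samd9l the 3 vehicle libraries of the 3-week start lie above the other 8 of that start, in Stat2, Herc6 and Psmb8 only 2 of them do, and in Rnf213 the 4 nicotine libraries lie below the other 7.

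The rest of the pathway was read from 6 lists of 131 genes that hold none of the 42. Their counts stand beside the shares of all genes called: 16.2% in 3-week vehicle against air (9.27% higher), 12.5% in the vehicle age contrast (7.38% lower) and 9.52% in the nicotine age contrast (4.49% lower). Apart from the receptors in the vehicle age contrast (4 of 6 tested, 66.7%), the lists of 6 to 14 tested genes had at most 4 calls in any of these contrasts, shares of up to 28.6%, and nothing about a list is read from counts so small. Interferons themselves were barely read: of 11 ligand genes, Ifna2, Ifng and Ifnz had at most 1 count in any library and the other 8 were at 0, which at these depths does not show that they are absent. Of 6 receptor subunits, 1 was lower in 3-week vehicle than in air, Ifngr2 of the interferon gamma receptor (-0.53 ± 0.18 log2, adjusted p = 0.0455). In the vehicle age contrast 3 were lower, Ifnar1 (-0.56 ± 0.15 log2, adjusted p = 0.0204), Ifnlr1 (-0.86 ± 0.24 log2, adjusted p = 0.0278) and Ifnar2 (-0.36 ± 0.10 log2, adjusted p = 0.0292), and 1 was higher, Il10rb (0.28 ± 0.09 log2, adjusted p = 0.0451), a subunit shared with the interleukin-10 receptor.

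Of 12 receptor kinases, STAT and IRF factors, 1 was higher and 2 were lower in 3-week vehicle than in air: Irf3, which drives interferon genes (0.69 ± 0.22 log2, adjusted p = 0.041), Stat3 (-0.92 ± 0.23 log2, adjusted p = 0.0215) and Irf2bp2, a corepressor (-1.04 ± 0.28 log2, adjusted p = 0.0259). In the vehicle age contrast Irf2bp2 was higher (1.43 ± 0.28 log2, adjusted p = 0.00633), and in the nicotine age contrast Irf2bp2 (1.01 ± 0.25 log2, adjusted p = 0.0159) and Stat3 (0.80 ± 0.20 log2, adjusted p = 0.0179) were higher. Of 14 tested genes of nucleic acid sensing (16 listed), 3 were higher in 3-week vehicle than in air: Trim25, a ligase that activates RIG-I (0.65 ± 0.19 log2, adjusted p = 0.0326), Tmem173, which encodes STING (0.57 ± 0.17 log2, adjusted p = 0.0326), and the DNA sensor gene Cgas (1.19 ± 0.35 log2, adjusted p = 0.0326). Mavs, the adaptor of the RNA sensors, was lower (-0.61 ± 0.18 log2, adjusted p = 0.0319). Trim25 (-1.12 ± 0.19 log2, adjusted p = 0.00447), Tmem173 (-0.93 ± 0.17 log2, adjusted p = 0.00495) and Cgas (-1.51 ± 0.36 log2, adjusted p = 0.0134) were lower in the vehicle age contrast, where the adaptor Ticam1 was higher (0.57 ± 0.18 log2, adjusted p = 0.0448), and in the nicotine age contrast 1 was lower, Trim25 (-0.70 ± 0.18 log2, adjusted p = 0.0195). Of 6 feedback inhibitors 1 passed, the phosphatase Ptpn6, lower in the nicotine age contrast (-0.79 ± 0.25 log2, adjusted p = 0.0461).

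Of 69 tested further interferon-induced genes (80 listed), 9 were higher and 0 lower in 3-week vehicle than in air, with a median of 0.35 log2 and 55 positive. Those 9 are 13% of the list, near the 9.27% of all genes. The smallest p-values were those of Gbp9 (1.06 ± 0.22 log2, adjusted p = 0.0145), the RNA helicase family gene Ddx60 (1.27 ± 0.27 log2, adjusted p = 0.0166), Trim12c (1.12 ± 0.25 log2, adjusted p = 0.0187) and Ifi203 (1.21 ± 0.28 log2, adjusted p = 0.0187). In the vehicle age contrast 16 were lower (23.2%, beside 7.38% of all genes) and 0 higher, with a median of -0.40 log2, led by Trim21 (-1.43 ± 0.28 log2, adjusted p = 0.0063), Gbp9 (-1.10 ± 0.22 log2, adjusted p = 0.00699), Ifi203 (-1.28 ± 0.28 log2, adjusted p = 0.00916) and Slfn9 (-1.41 ± 0.31 log2, adjusted p = 0.00995). The nicotine age contrast had 7 calls, 10.1% of the list beside 9.52% of all genes: 5 lower, Ifitm1 (-1.08 ± 0.27 log2, adjusted p = 0.0166), Trim21 (-0.97 ± 0.27 log2, adjusted p = 0.027), Trim12c (-0.82 ± 0.24 log2, adjusted p = 0.0382), Ube2l6 (-0.50 ± 0.15 log2, adjusted p = 0.0433) and 1 more, and 2 higher, Slfn5 (0.34 ± 0.10 log2, adjusted p = 0.0407) and Helz2 (0.81 ± 0.25 log2, adjusted p = 0.0418). All calls in the 6 lists, of 107 tested genes, came from these 3 of the 9 comparisons in edgeR, and the smallest adjusted p elsewhere was 0.0611, for Irf8 in 3-week nicotine against air (-1.11 log2). These lists rest on the same libraries as the 42 genes, and their counts were not recomputed without single libraries.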

How the data were processed

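RNA of the left ventricle was sequenced in 23 libraries. Per the submitters' processing notes, the authors trimmed reads with Trimmomatic 0.36, aligned them with STAR 2.5.2b and counted them per gene with featureCounts of Subread 1.5.2, and deposited raw counts per gene. The genome build, the annotation and the strandedness used in counting were not given in the sources used here. The authors deposited tables for nicotine against air at each start, with log2 fold changes and p-values, per the file headers, and per the submitters' processing notes DESeq2 was used. Values from them are named as theirs, and the authors' deposited enrichment table was not used.

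Libraries were grouped by their labels. Counts were fitted in all 6 groups together with edgeR 4.0.16 in R 4.3.3: TMM scaling, a filter on low counts with a minimum count of 10, a robust quasi-likelihood test with 17 residual degrees of freedom, and Benjamini-Hochberg adjustment over 15500 genes, with calls at an adjusted p under 0.05. The common biological coefficient of variation was 0.179. Errors beside log2 fold changes are standard errors. CPM values are TMM-scaled, and means of log2 values used a pseudocount of 0.5. Library totals of 12297955 to 17821550 counts left genes such as Zbp1, with 0 to 13 counts, imprecise. The fitting was tested on simulated data. The exonic lengths and gene symbols come from the reference annotation given with the data, which may not be the authors' own.

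The 42 genes, the gene lists and the tests were chosen with earlier results of these data known. Full statistics were given for up to 6 genes past the threshold with the smallest p per comparison, or for the 3 with the smallest p where none passed, with further genes for context. Values in every library were given for the gene called with the smallest p and the gene with the highest level per length in each role group, with Ifit3b, Trim30a, Rnf213, Iigp1, Gbp5 and Gbp6 added after their values were seen. From the pathway lists, up to 4 genes in each direction per comparison were named. Alternatives were RLE scaling, no filter, DESeq2 1.42.0, only the compared groups in the fit, the replicate number as a block, leaving out each library, leaving out 2 libraries that stood apart, and an offset for exonic length, the last chosen after seeing the data. A result of the pathway lists is not reported here.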

Additional observations from a re-analysis of the deposited data

Results flagged for a closer look

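In groups of 4 libraries, a library was singled out when its gap to the nearest other library took a larger share of the group's range than Dixon's 95% critical value. This held for 8 of 205 groups of values, and chance alone gives about 1 in 20. In 3-month nicotine, library 3 was apart from the other 3 libraries, on the high side, for 5 genes: Ddx58 at 17.1 CPM (others 10.8 to 11.1), Oasl2 at 5.12 CPM (others 3.64 to 3.89), Rsad2 at 9.89 CPM (others 4.42 to 5.21), Parp14 at 32.4 CPM (others 22.2 to 23.8) and Gbp7 at 20.96 CPM (others 11.5 to 12.4). Psmb8 was low in 3-week air library 1, at 12.8 CPM (others 20.7 to 22.03). Irf7 was low in 3-month air library 5, at 3.24 CPM (others 4.803 to 4.97), and Ifi44 was low in 3-month vehicle library 2, at 0.552 CPM (others 0.94 to 1.002).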

How the results depend on the processing

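No gene past the threshold turned its direction (0 values) under an alternative, but calls depended on libraries. For 3-week vehicle against air the count of 9 became 4 with no filter, 0 with only the compared groups and 0 without 3-week air libraries 1 and 5. Of all genes 2.19%, 0.0% and 0.0% were higher in these fits. Leaving out 1 library gave 0 to 17 (0.0% to 20.8% of all genes higher), and a median of 0.337 to 0.576 log2. For vehicle between ages the count of 22 became 14 with no filter, 8 with only the compared groups and 0 to 26 without 1 library (median -0.91 to -0.708 log2). Of all genes 2.01% were lower with no filter, 0.911% with only the compared groups and 0.0% to 19.3% without 1 library. For nicotine between ages the count of 10 became 6 with no filter and 3 to 13 without 1 library (median -0.745 to -0.421 log2). There 1.31% of all genes were lower with no filter and 1.43% to 5.4% without 1 library. For air between ages DESeq2 gave 1, leaving out 3-week air libraries 1 and 5 gave 16 and leaving out 1 library 0 to 5 (median -0.751 to -0.453 log2). The shares of all genes lower were 0.139%, 3.63% and 0.0% to 0.291%.

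With the replicate number as a block, the counts were 0 for 3-week vehicle against air and 4 for nicotine between ages, and no other count moved by more than 1.5 times. In that fit 0.0% of all genes passed in 3-week vehicle against air and 1.92% were lower in nicotine between ages. The deviations of 16 pairs of libraries with the same number correlated at -0.39 to 0.33, over 0.1 in 4 pairs. In 5 of 32 cases a library correlated best with its own number. With so few libraries per group, where single libraries stand apart, this cannot decide whether libraries with the same number share a cage or batch. DESeq2 gave 1 for 3-week nicotine against air and 2 for 3-week nicotine against vehicle, where 2.66% and 1.46% of all genes were lower. Only the compared groups gave 8 for 3-month vehicle against air (7.65% of all genes higher) and 3 for 3-month nicotine against vehicle (5.99% lower). Leaving out 1 library gave 0 to 10 for 3-week nicotine against vehicle (0.0% to 13.8% of all genes lower). It gave 0 to 1 for the difference of the vehicle effects (0.0% to 9.3% of all genes). The count was 0 in the other comparisons listed next, where at most 2.43% of all genes passed. The medians then ran from -0.0342 to 0.296 log2 for 3-week nicotine against air, -0.499 to -0.264 against vehicle, 0.192 to 0.4 for 3-month vehicle against air, -0.0296 to 0.192 for 3-month nicotine against air, -0.29 to -0.0928 against vehicle, 0.00692 to 0.385 for the difference of the vehicle effects and -0.13 to 0.18 for that of the nicotine effects. Without 3-week vehicle libraries 1 and 2, where the 1 library left is assumed to vary as the other groups do, the medians were -0.108 log2 for 3-week nicotine against vehicle, -0.484 for vehicle between ages and -0.0474 for the difference of the vehicle effects. Without 3-week air libraries 1 and 5 the median of the nicotine difference was -0.222 log2 and that of 3-week nicotine against air -0.0927 log2. Where fewer libraries or groups entered, fewer samples set the spread; beyond that the cause was not tested. Genes with few counts, Zbp1, Ifi44, Isg15 and Oas3 among them, are limited by depth.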
